A study of Rattus norvegicus with 6 samples.

Results

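The ADAMTS proteases described here are 10 rat genes (Adamts1, Adamts2, Adamts4, Adamts5, Adamts6, Adamts7, Adamts9, Adamts10, Adamts12 and Adamts15), chosen by symbol and kept whatever their level. All 10 were found among the 22573 gene rows used. RNA was sequenced from nucleus pulposus cells of Sprague Dawley rats, which come from the soft core of the intervertebral disc, with 3 control libraries and 3 libraries under cyclic tensile strain. The strain was 18% elongation at 0.2 Hz for 24 h on a Flexcell tension device. The labels repeat the stretching text on every sample, so the controls are unstretched only as far as their class label says control, and no label gives the animals' age or sex, the culture conditions or whether replicates came from separate animals. The p-values therefore measure only how far these libraries differ, a spread that may be technical.

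ADAMTS proteins are secreted zinc metalloproteases that carry thrombospondin repeats and cut components of the extracellular matrix. The aggrecanases among them cleave the core protein of aggrecan, the proteoglycan that holds water in the disc core, and its loss is a known feature of disc degeneration. Other members trim procollagens before fibrils form, cleave the cartilage oligomeric matrix protein (COMP), or act on fibrillin microfibrils.

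Under strain 6 of the 10 genes rose, 2 fell, and 2 lay under the filter of a mean of 1 FPKM (a fragment count divided by transcript length and by library size). The 2 that fell were Adamts4, an aggrecanase, and Adamts7, a COMP-cleaving protease, while Adamts1, Adamts5, Adamts2, Adamts12, Adamts6 and Adamts10 rose. All 8 genes above the filter were thus called (limma, Benjamini-Hochberg adjusted p under 0.05 over all tested genes), against 35.4% of the 10180 tested genes. The shares called in each direction over all tested genes were 16.4% higher and 19.0% lower. After rescaling all libraries to 1 common sum these counts turned from 1672 higher and 1936 lower to 2067 and 1537. No member changed direction under that or any other scaling tried. Each of the 8 had a mean above 1 FPKM in both groups, so none passed the filter through a single group. The control and strain libraries did not overlap for any of the 8 tested members. Of all tested genes 51.9% had groups that did not overlap, 24.0% higher and 28.0% lower. With the 2 genes under the filter, which that share does not cover, the groups did not overlap for 9 of the 10 genes, 7 of them higher and 2 lower. The median absolute log2 fold change of the 8 was 0.85, and that of all tested genes was 0.24.

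Promoter windows of the members that moved are shown to give the sequence beside the response. RefSeq's GRCr8 table, with 250 bases before and 50 after each gene's start, held 8 of the 10 genes, and Adamts5 and Adamts15 were not matched. The 3 windows printed belong to the gene with the largest fall (Adamts4), the most abundant gene (Adamts1) and a gene that rose and holds an NF-kB motif match (Adamts12). Capitals mark every match, on either strand, to TGANTCA (AP-1), CACGTG (the E-box of clock factors), AGGTCA (a nuclear receptor half-site), TGTGGT (RUNX), GGAATG (TEAD), TATAAA (the TATA box), GGGCGG (the GC box) or the NF-kB consensus.
Adamts4, chr13:86202761-86203060, plus strand: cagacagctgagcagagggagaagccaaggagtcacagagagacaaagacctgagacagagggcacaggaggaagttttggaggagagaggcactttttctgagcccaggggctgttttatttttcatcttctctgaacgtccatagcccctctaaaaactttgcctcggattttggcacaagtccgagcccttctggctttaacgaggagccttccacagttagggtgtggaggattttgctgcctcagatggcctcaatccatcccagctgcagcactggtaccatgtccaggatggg
Adamts1, chr11:38427335-38427634, minus strand: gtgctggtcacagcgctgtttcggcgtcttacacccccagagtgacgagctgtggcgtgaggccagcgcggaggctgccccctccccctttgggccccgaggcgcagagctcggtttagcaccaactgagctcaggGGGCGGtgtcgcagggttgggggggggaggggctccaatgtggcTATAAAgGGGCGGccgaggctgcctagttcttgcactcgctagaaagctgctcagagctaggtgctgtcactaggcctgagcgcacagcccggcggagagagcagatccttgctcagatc
Adamts12, chr2:61759737-61760036, plus strand: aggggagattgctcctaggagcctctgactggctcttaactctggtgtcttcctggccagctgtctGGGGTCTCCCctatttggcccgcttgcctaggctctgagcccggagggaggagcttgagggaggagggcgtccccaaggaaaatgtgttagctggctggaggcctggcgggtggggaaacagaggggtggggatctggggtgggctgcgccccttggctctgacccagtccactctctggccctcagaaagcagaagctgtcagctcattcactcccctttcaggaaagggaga

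The Adamts4 window held no match to any of these 8 motifs. The Adamts1 window held TATAAA and, in 2 places, GGGCGG. Adamts12 held the NF-kB match GGGGTCTCCC, and Adamts9 held GGGGGCCCCC, which overlaps a GGGCGG match there. None of the 8 members' windows held the AP-1, E-box, RUNX or TEAD motif, and only that of Adamts6 held AGGTCA. Over the 27457 genes of the table, the windows with a match made up 7.33% for TGANTCA, 6.65% for CACGTG, 15.7% for AGGTCA, 16.9% for TGTGGT, 13.9% for GGAATG, 14.3% for TATAAA, 34.9% for GGGCGG and 7.6% for NF-kB. A match or its lack describes only these letters in this window.

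In FPKM, which is scaled to transcript length and so allows levels of genes to be set side by side, Adamts1 stood far above the rest. It held 75.5% ± 3.63 of the summed FPKM of the 10 genes in controls and 83.1% ± 0.678 under strain (SD, n = 3). The order of mean levels in controls was Adamts1, Adamts5, Adamts4, Adamts7, Adamts10, Adamts12, Adamts2, Adamts6, Adamts15 and Adamts9. In that order the ranges of the libraries overlapped between Adamts5 and Adamts4, Adamts4 and Adamts7, Adamts12 and Adamts2, Adamts2 and Adamts6, and Adamts15 and Adamts9. Under strain the mean of Adamts4 also stood below those of Adamts7, Adamts10, Adamts6 and Adamts2, with a range that overlapped those of Adamts6, Adamts2 and Adamts12. In bulk RNA, fewer cells of a type and less RNA per cell cannot be told apart for any of these levels.

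**Figure D1:**
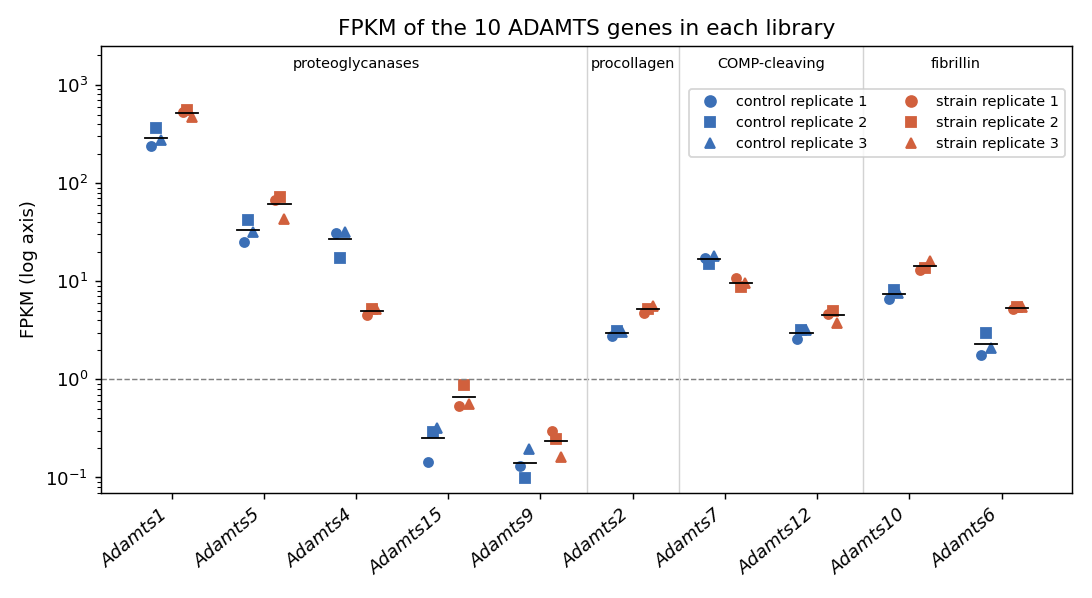
FPKM (log axis) of the 10 ADAMTS genes in each of the 3 control (blue) and 3 strain (orange) libraries, grouped by role, with bars at the group means and a dashed line at the filter of 1 FPKM. The groups do not overlap for 9 of the 10 genes, and Adamts9 is the exception.

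Among the proteoglycan-cleaving members, Adamts4, whose product is a main aggrecanase and is induced by inflammatory cytokines in cartilage, had 31.2, 17.1 and 31.9 FPKM in control replicates 1 to 3 and 4.58, 5.16 and 5.19 FPKM in strain replicates 1 to 3. Every strain library lay below every control, and control replicate 2 was the lowest control. The mean fell from 26.7 ± 8.33 to 4.97 ± 0.344 FPKM (SD, n = 3), a log2 fold change of -2.16 ± 0.21 SE (limma, adjusted p = 0.000155). Only 0.855% of the tested genes changed by as much in either direction.

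Adamts5, the other main aggrecanase, moved the opposite way. Its controls held 25.0, 42.5 and 31.8 FPKM and the strain libraries 66.6, 71.9 and 43.4 FPKM, so strain replicate 3 lay just above control replicate 2. The log2 fold change was 0.85 ± 0.23 SE (limma, adjusted p = 0.0214), a 1.83-fold rise of the mean. The rise lost its call without control replicate 1 (adjusted p = 0.063), control replicate 3 (0.0585), strain replicate 1 (0.0647) or strain replicate 2 (0.0713), and over 14 alternatives the adjusted p ran from 0.00959 to 0.0713.

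Adamts1, a protease of versican and aggrecan that is also known as a secreted inhibitor of vessel growth, held 239.7, 361 and 273 FPKM in controls and 529.5, 557 and 469.8 FPKM under strain. The groups did not overlap, and the mean rose 1.78-fold, from 291 ± 62.8 to 519 ± 44.8 FPKM (log2 fold change 0.85 ± 0.15 SE, limma, adjusted p = 0.00331). Adamts1 and Adamts5 are protein-coding neighbours in the RefSeq table. Their libraries stood in the same order within both groups: control replicate 2 was the highest control and strain replicate 3 the lowest strain library for each. That order was not particular to this pair. Acan (24.2, 43.3 and 25.7 FPKM in controls, 39.4, 41.2 and 35.1 with strain) and Fbn1 (24.7, 32.4 and 28.1, then 39.9, 44.8 and 32.7) had it too. The ratio of Adamts1 to Adamts5 FPKM was 8.89 ± 0.600 in controls and 8.84 ± 1.72 under strain, and its groups overlapped.

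The remaining proteoglycanases were scarce. Adamts15, which cleaves versican and aggrecan, had 0.142, 0.289 and 0.322 FPKM in controls and 0.537, 0.872 and 0.557 FPKM under strain. Fitted without the filter, where 23.3% of 16152 genes were called and 10.7% were called higher, it was called higher (limma, adjusted p = 0.0306). Adamts9, a versican-cleaving protease, had 0.130, 0.0977 and 0.196 FPKM in controls and 0.29996, 0.244 and 0.162 FPKM under strain. Its groups overlapped and it was not called without the filter (limma, adjusted p = 0.178, 95% interval of the log2 fold change -0.01 to 0.24).

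The summed FPKM of Adamts4 and Adamts5 was 56.2, 59.6 and 63.7 in controls and 71.2, 77.1 and 48.6 under strain, so the sum of the main aggrecanases overlapped between the groups while its makeup differed. The ratio of Adamts5 to Adamts4 was 0.802, 2.48 and 0.998 in controls and 14.5, 13.9 and 8.36 under strain. Adamts4 made up 8.02% ± 3.47 of the summed FPKM of the 5 proteoglycanases in controls and 0.857% ± 0.126 under strain (SD, n = 3). The share of Adamts5 in that sum was 9.32% ± 0.822 and 10.2% ± 1.64, with overlapping groups. These sums and shares are descriptions with no test.

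**Figure D2:**
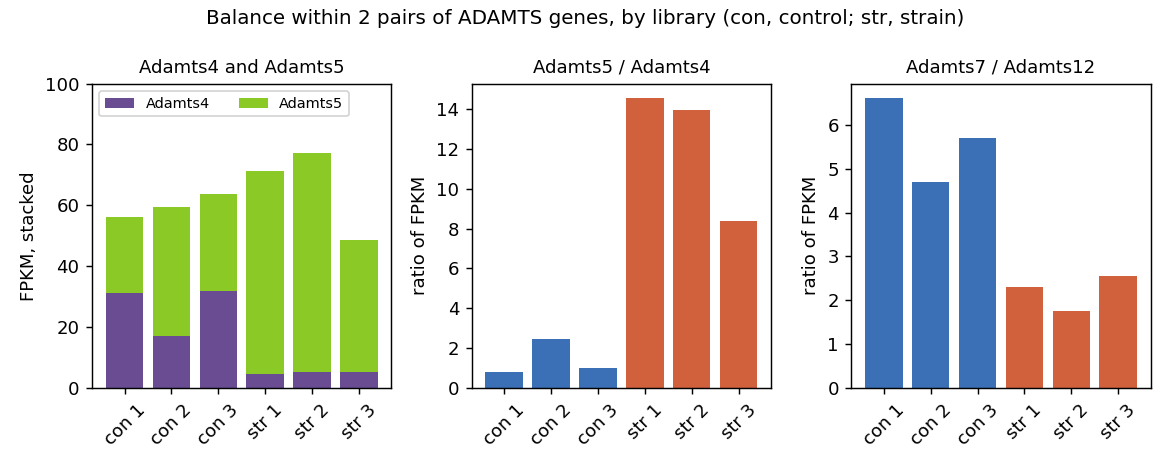
Left, FPKM of Adamts4 and Adamts5 stacked for each library; centre and right, the ratio of Adamts5 to Adamts4 and of Adamts7 to Adamts12 in each library (controls blue, strain orange). The stacked sums overlap between the groups, from 48.6 to 77.1 FPKM over the 6 libraries, while neither ratio overlaps.

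Adamts7 and Adamts12, whose products are both known to cleave COMP, moved apart. Adamts7 had 17.2, 14.8 and 18.2 FPKM in controls and 10.7, 8.72 and 9.65 FPKM under strain, with no overlap. It fell by 0.73 on the log2 scale (± 0.11 SE, limma, adjusted p = 0.00131). Adamts12 had 2.60, 3.15 and 3.20 FPKM in controls and 4.67, 5.001 and 3.77 FPKM under strain, again with no overlap. Its log2 fold change was 0.46 ± 0.12 SE (limma, adjusted p = 0.0178), the smallest of the 8. That call was lost without control replicate 1 (adjusted p = 0.075), strain replicate 1 (0.0508) or strain replicate 2 (0.066), and over 13 alternatives the adjusted p ran from 0.00852 to 0.075. The ratio of Adamts7 to Adamts12 FPKM was 6.61, 4.71 and 5.70 in controls and 2.30, 1.74 and 2.56 under strain. Since Adamts7 was the more abundant, the summed FPKM of both lay at 18.0 to 21.4 in controls and 13.4 to 15.4 under strain.

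Adamts2, which removes the amino-terminal propeptide of fibrillar procollagens, rose in every strain library. It had 2.79, 3.08 and 3.05 FPKM in controls and 4.73, 5.26 and 5.61 with strain (log2 fold change 0.64 ± 0.10 SE, limma, adjusted p = 0.00144). Adamts14, a close relative with the same activity that is not among the 10, rose beside it, from 1.24 ± 0.185 to 2.45 ± 0.268 FPKM (limma, adjusted p = 0.00286). Of 3 tested procollagen genes 2 rose, Col3a1 4.001-fold and Col1a1 2.75-fold, where 16.4% of all tested genes were called higher. Col1a2, the partner chain of Col1a1, was at 88.9 ± 13.5 and 70.5 ± 5.97 FPKM and was not called. Col1a1 FPKM per summed FPKM of Adamts2 and Adamts14 was 418, 481 and 414 in controls and 645, 682 and 666 under strain. The level of Col1a1 thus increased by more than the summed level of the peptidases, which does not extend to Col1a2.

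The fibrillin-associated members Adamts6 and Adamts10, whose products act at microfibrils, both rose with no overlap of the groups. Adamts6 had 1.78, 2.96 and 2.10 FPKM in controls and 5.19, 5.43 and 5.51 with strain, the largest rise of the 8 (log2 fold change 0.98 ± 0.13 SE, limma, adjusted p = 0.000802). Adamts10 had 6.56, 8.15 and 7.58 FPKM in controls and 12.9, 13.8 and 16.1 with strain (log2 fold change 0.86 ± 0.11 SE, limma, adjusted p = 0.000685). Of 3 tested genes for COMP and microfibril proteins 2 rose, where 16.4% of all tested genes were called higher. They were Ltbp2, a microfibril-associated protein gene (1.504-fold), and the fibrillin gene Fbn1 (1.38-fold, limma, adjusted p = 0.0314). The Fbn1 call was lost when control replicate 1 or 3 or strain replicate 1 or 2 was left out, and without the filter (adjusted p = 0.0114 to 0.12 over 14 alternatives). Comp itself was at 0.212 ± 0.0643 and 0.305 ± 0.144 FPKM, under the filter.

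**Figure D3:**
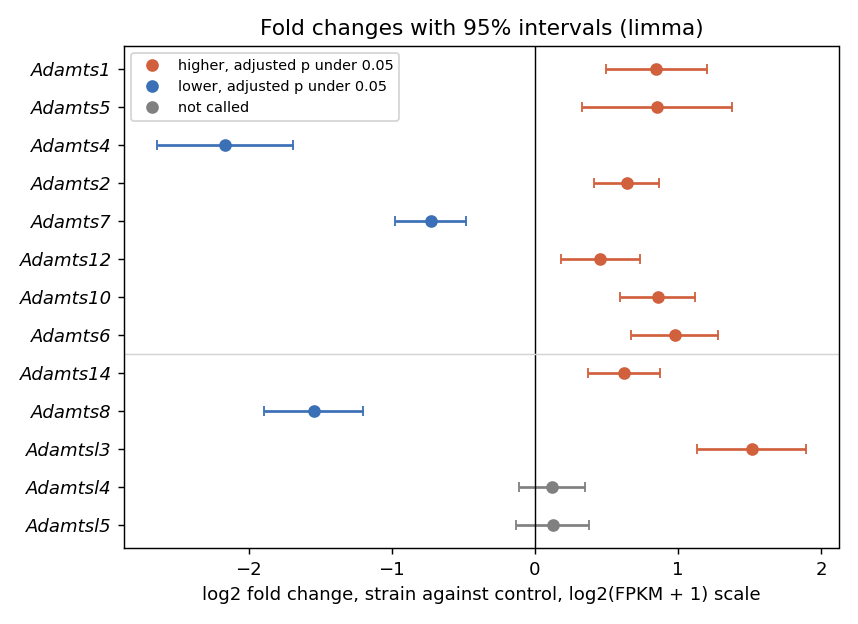
Log2 fold changes of strain against control on the log2(FPKM + 1) scale, with 95% intervals from limma, for the 8 tested members (above the line) and the tested other ADAMTS and ADAMTS-like genes (below it). Adamts4 and Adamts7 lie below 0 among the members, as does Adamts8 among the other genes.

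Of the 9 other ADAMTS genes in the files, Adamts14 and Adamts8 passed the filter. Adamts8, a protease with weak aggrecanase activity, fell from 4.22 ± 0.333 to 0.813 ± 0.387 FPKM (log2 fold change -1.55 ± 0.15 SE, limma, adjusted p = 0.000152). Its strain mean lay under the filter, so it passed through the controls. Adamts8 and Adamts15 are protein-coding neighbours in the RefSeq table, and their ratio was 32.2, 13.6 and 13.0 in controls and 2.31, 0.827 and 0.864 under strain. The other 7 genes stayed at or below 0.126 FPKM in every library, and Adamts13 was listed at 0 in all 6. ADAMTS-like genes encode relatives without the protease domain. Of the 3 tested, Adamtsl3 rose from 2.21 ± 0.731 to 8.05 ± 1.19 FPKM (limma, adjusted p = 0.000254), while Adamtsl4 and Adamtsl5 were not called. Over all tested genes 35.4% were called.

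The main proteoglycan substrates were not called. Acan, the aggrecan gene, had 24.2, 43.3 and 25.7 FPKM in controls and 39.4, 41.2 and 35.1 with strain (log2 fold change 0.35, limma, adjusted p = 0.199, 95% interval -0.10 to 0.79). Without control replicate 2 it was called higher (limma, adjusted p = 0.00517). Vcan, the versican gene, was at 113 ± 13.6 and 132 ± 36.9 FPKM (limma, adjusted p = 0.496), and was called higher only when strain replicate 3 was left out (0.0171). Bcan and Ncan were under the filter.

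Genes that act on ADAMTS proteins moved in both directions, where 19.0% of all tested genes were called lower and 16.4% higher. Among 4 tested activating proteases, which remove the prodomain, Furin fell from 86.4 ± 11.4 to 36.6 ± 0.843 FPKM and Pcsk5 from 4.49 ± 0.670 to 1.97 ± 0.175 FPKM, while Pcsk6 rose from 1.18 ± 0.259 to 2.30 ± 0.212 FPKM and Pcsk7 was not called (limma, adjusted p = 0.000101, 0.000621, 0.00474 and 0.677). Timp3, the main tissue inhibitor of the aggrecanases, had 21.2, 18.7 and 22.2 FPKM in controls and 9.82, 8.93 and 9.90 with strain (log2 fold change -1.04 ± 0.10 SE, limma, adjusted p = 0.000114). Summed Adamts4 and Adamts5 FPKM per Timp3 FPKM was 2.66, 3.18 and 2.87 in controls and 7.25, 8.63 and 4.91 under strain. Timp2 rose 1.44-fold. Timp1 was lower under strain (977 ± 64.6 to 759.8 ± 69.7 FPKM, limma, adjusted p = 0.0364), a call lost when any library but strain replicate 3 was left out (0.0686 to 0.142). Lrp1, the receptor that clears aggrecanases from the matrix, was at 143 ± 8.17 and 153 ± 25.0 FPKM (limma, adjusted p = 0.660), and was called higher without strain replicate 3 (0.049).

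Of 13 tested genes for cytokines, receptors and transcription factors known to regulate aggrecanases, 8 fell and 2 rose, where 19.0% of all tested genes were called lower and 16.4% higher, with a median log2 fold change of -0.42 against -0.01 over all tested genes. Il1a and Il1b, interleukin-1 genes whose products induce ADAMTS4 in cartilage, had the largest falls of the list. Il1b had 135, 79.0 and 155 FPKM in controls and 13.4, 5.58 and 4.12 with strain (log2 fold change -3.92 ± 0.46 SE, limma, adjusted p = 0.00201). Control replicate 2 was the lowest control for Il1b, as for Adamts4. Under strain their orders were opposite: Il1b was highest in strain replicate 1, where Adamts4 was lowest (4.58 FPKM, against 5.16 and 5.19). A link of the interleukin-1 genes to Adamts4 was not tested. Il1a went from 228 ± 32.9 to 8.09 ± 7.86 FPKM, with strain replicate 1 at 17.1 and the others at 4.72 and 2.48 FPKM. The interleukin-1 receptor gene Il1r1 fell from 11.7 ± 0.784 to 5.28 ± 1.18 FPKM and the NF-kB subunit gene Nfkb1 from 61.3 ± 5.54 to 23.6 ± 6.03 FPKM.

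**Figure D4:**
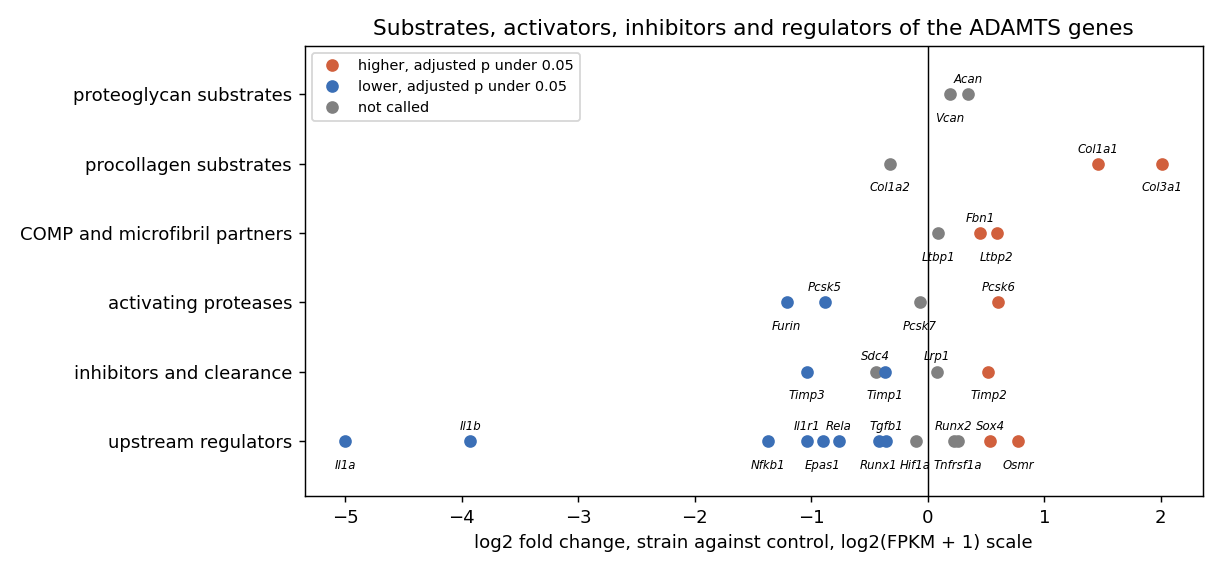
Log2 fold changes of strain against control (log2(FPKM + 1) scale) for tested substrates, activating proteases, inhibitors and clearance genes, and upstream regulators, each point a gene (orange called higher, blue called lower, grey not called). Il1a and Il1b lie farthest below 0, and Col3a1 lies farthest above it.

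The genes most like Adamts4 in pattern were taken as those with the smallest root mean square difference of centred log2 values over the 6 libraries, among 4954 genes of at least 8 FPKM. They were the integrin gene Itga7 (0.21), Cemip, whose product takes part in hyaluronan breakdown (0.21), the desaturase gene Scd (0.22), Slfn13 (0.22) and Slfn2 (0.22), against a median of 1.12 over the genes compared. Each of them also had its lowest control value in control replicate 2. For Adamts5 they were Fam129a (0.14), Tenm3 (0.17), Zc2hc1a (0.18), Gda (0.18) and Svep1 (0.19), against a median of 0.56. Each had its highest control value in control replicate 2 and its lowest strain value in strain replicate 3. Because both sets were picked by likeness over these same libraries, the shared order follows largely from that choice and is no separate result.

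Control replicate 2 was the control nearest to the strain mean for 7 of the 8 tested members, Adamts12 being the exception, and for 47.8% of all called genes. Strain replicate 1 lay nearest to the control mean for Adamts2, Adamts6, Adamts7 and Adamts10, and for 53.0% of all called genes. Strain replicate 3 did so for Adamts1, Adamts4, Adamts5 and Adamts12, and for 22.0% of all called genes. On the first principal component control replicate 2 was the control nearest to the strain libraries (-24.1, the others at -32.7 and -28.6), and strain replicate 3 stood apart on the second (17.5, the other strain libraries at -9.70 and -10.8).

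Of 15 nucleus pulposus and notochord markers 10 passed the filter, and 8 of these were called higher under strain, where 16.4% of all tested genes were. Krt8 was among them (2.85 to 5.40 FPKM in controls and 6.86 to 11.3 with strain), and Cd24, at 3.57 to 5.68 FPKM over the 6 libraries, was not called. T, the notochord factor brachyury, and the cytokeratin genes Krt18 and Krt19 did not exceed 0.139 FPKM in any library. Col2a1 lay under the filter at 0.0423 ± 0.0294 and 0.898 ± 0.485 FPKM, and without the filter it was called higher (limma, adjusted p = 0.0157). Tendon and annulus fibrosus markers, genes of the outer disc, moved with the groups: 5 of 6 tested rose and Egr1 fell, where 35.4% of all tested genes were called. Mkx, among those that rose, passed the filter through the strain libraries (control mean 0.704 FPKM, strain mean 2.47 FPKM). The summed level of the tendon and annulus list went from 1830 to 2363 FPKM in controls to 4755 to 5851 FPKM under strain, most of it Col1a1. Tnmd was listed at 0 throughout. Among 8 macrophage markers 3 were tested: Cd68 and Adgre1 fell and Lyz2 rose, where 35.4% of all tested genes were called. Cd68 passed the filter through the controls (strain mean 0.633 FPKM) and Lyz2 through the strain libraries (control mean 0.249 FPKM). The summed level of all 8 was 3.37 to 8.19 FPKM in controls and 4.14 to 7.31 FPKM under strain, Ptprc did not exceed 0.0486 FPKM and Cd163 was listed at 0. The 6 endothelial markers did not exceed 0.294 FPKM (Cdh5 listed at 0), with a summed level of 0.113 to 0.330 FPKM in controls and 0.422 to 0.596 FPKM under strain, and the 6 blood cell markers were all listed at 0. Of 6 skeletal muscle markers only Acta1 was tested, and it was not called; their sum was 1.78 to 4.18 FPKM in controls and 1.78 to 4.501 FPKM under strain, with Myh4 and Ckm listed at 0. Of 6 neural markers S100b and Tubb3 were tested and both rose, with a summed list level of 30.4 to 32.6 FPKM in controls and 38.3 to 48.2 FPKM under strain. The part of these markers in the ADAMTS results was not tested.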

How the data were processed

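The authors deposited 1 table of FPKM per sample, taken as such because the values are not whole numbers and the submitters' processing notes name Cufflinks, Cuffdiff 2.2.1, HISAT2 2.0.4, cutadapt 1.9.3 and DESeq. Neither the annotation nor strand use nor the tools' order is given in the sources used here. Reads of genes that overlap on opposite strands can therefore not be told apart. A human build, hg19, is the only build listed, while the symbols are rat ones, so promoter coordinates are RefSeq's on GRCr8 and not the authors'. Of 22601 rows, 27 named by a calendar date and 1 that could not be read in every file were left out. Summed FPKM per library was 309497 to 348238. Depth is unknown: among low values (0.003 to 0.06 FPKM) at most 12.3% fell within 0.01 log2 units of the most frequent ratio between libraries, too few to recover reads. No pair of libraries shared values at or above 1 FPKM.

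Genes averaging 1 FPKM or more were fitted as log2(FPKM + 1) with limma 3.58.1 (R 4.3.3, trend and robust moderation, all 6 samples, two-sided, Benjamini-Hochberg over all tested genes). Fold changes on this scale understate the change of low genes. Folds without log are ratios of mean FPKM. On simulated data for this comparison (10180 genes, 200 changed) 52.0%, 86.7% and 97.9% of 1.5-, 2- and 4-fold changes were recovered. The simulation changed far fewer genes than were called here and drew noise independently for each gene. Its rates may therefore differ from those in the real data. The members and lists were chosen with earlier results of these data known. All members are named; of each partner list the called genes with the largest change, at most 4, are named, with Timp3, Lrp1, Acan, Vcan, Il1a and Il1b in any case. Other genes (Col1a2, Pcsk7, Comp, Bcan, Ncan, Osmr, Sox4, Tnf, Il6, Timp4, A2m, Mmp17, other ADAMTS, ADAMTS-like and marker genes) were named after their values were seen.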

Additional observations from a re-analysis of the deposited data

How the results depend on the processing

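Each of the 14 alternatives was set against the calls above. Of 109 member values under them, 102 kept their direction and side of the threshold, 7 lost the call (Adamts5 in 4, Adamts12 in 3) and 0 reversed. With a filter at a mean of 5 FPKM only 5 members were tested and 5 called, 3 of them higher. Over all genes under that filter 2488 of 6572 were called, 1071 of them higher. Leaving out 1 library gave 2375 to 3576 called genes, 1047 to 1528 of them higher and 1328 to 2048 lower; the lowest totals (2375, and 1047 higher) came without control replicate 1. Quantile normalization gave 2138 higher and 1711 lower. With 1 library left out the Adamts4 share was 6.76% to 9.99% in controls and 0.786% to 0.906% under strain. Deviations from the group means correlated at 0.0325, 0.108 and -0.116 between libraries with equal replicate numbers, and at -0.21 to 0.12 between the others. With 3 libraries a group, these values cannot show whether equal numbers share an animal or day. With the replicate block 3116 genes and all 8 tested members were called, and Timp1 was not (adjusted p = 0.0668, limma). Without read totals no counting error can be given, and values under 1 FPKM are the least certain.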

Other observations

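Some genes of the partner lists lay under the filter and are given as values. Tnf, an inflammatory cytokine gene, had 0.679, 0.296 and 0.312 FPKM in controls and 0.0309 FPKM in strain replicate 1, and was listed at 0 in the other strain libraries. Il6, another cytokine gene, was listed at 0 in all 6 libraries. Timp4, a further tissue inhibitor of metalloproteinases, did not exceed 0.258 FPKM, and A2m, a plasma protease inhibitor, reached 0.595 FPKM in control replicate 2 and 0.149 FPKM or less elsewhere. Mmp17, which is known to activate ADAMTS4, was at 0.0808 FPKM on average in each group.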
